A study of Mus musculus with 2 samples.

Results

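The genes described here are 10 genes of macrophage surface proteins that meet T cells and other lymphocytes: Cd40, Cd80, Cd86, Cd83, Cd274, Pdcd1lg2, Icosl, Icam1, Cd48 and Slamf7. They were chosen by symbol, and each had 1 probe set with a single gene symbol, so 10 of 22180 named genes are covered in full. Messenger RNA was measured on 2 Affymetrix arrays, 1 from cells labelled HuR-deficient and 1 from wildtype cells. Both are cultures of RAW264.7, an established mouse macrophage line. Both cultures were transfected for 8 hours with poly(I:C) HMW, a long double-stranded RNA that mimics viral RNA, by means of lipofectamine 2000, at 1 mg/ml as the labels state it. Both groups were stimulated, and a resting culture was not analysed here, so nothing below is a response to poly(I:C) itself. HuR is the protein of the gene Elavl1 and is known to bind AU-rich parts of mRNAs and to protect many of them from decay. The title of the HuR-deficient sample calls it HuR-KO, a knockout. No source used here says how the knockout was made or whether the deficient line is 1 clone.

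T cells need a second signal beside antigen, which costimulatory ligands on macrophages and dendritic cells supply. CD80 and CD86 bind CD28, which activates T cells, and CTLA-4, which restrains them. PD-L1 and PD-L2, the products of Cd274 and Pdcd1lg2, bind the inhibitory receptor PD-1. ICOSL binds ICOS, ICAM-1 holds T cells through the integrin LFA-1, and CD48 and SLAMF7 belong to the SLAM family of immunoglobulin-like proteins. CD40 is itself a receptor, which T cells engage through CD40 ligand. Interferon and NF-kappaB signalling are known to raise many of these genes in activated macrophages.

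Of the 10 genes, Slamf7 differed most between the arrays and was the member past 2-fold, 2.41-fold above wildtype in the array labelled HuR-deficient. Cd40, Cd80 and Cd274 were 1.35-fold to 1.47-fold higher, Cd48 was 1.57-fold lower and Cd86 1.30-fold lower. Cd83 was near equal on both arrays. In all, 8 members had a difference above 0 and 2 below it, and 49.2% of all named genes had a difference above 0. The median difference was 0.40 over the 10 members and 0.00 over all named genes. Every difference in the text is a log2 value, array labelled HuR-deficient minus wildtype array. With 1 array per group there is no spread between replicates and no test, so each value describes these 2 cultures. In place of such a spread, a member's difference is set beside those of the 500 named genes nearest to it in mean signal, whose robust SD (the scaled median absolute deviation) is given. Fewer cells that express a gene and less of its RNA per cell cannot be told apart in such bulk RNA.

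To pass the filter on signal, a gene needed at least 4.37 on 1 or both arrays, which is the median over all probe sets with 1 symbol, and 11981 genes had it. Of the 10 members, 9 passed. Icosl did not, and Pdcd1lg2 passed through the array labelled HuR-deficient alone. The arrays correlated over 41345 probe sets with a Pearson r of 0.970 (a description across probe sets). Elavl1 itself had a log2 signal of 7.75 on the array labelled HuR-deficient and 7.68 on the wildtype array, a difference of 0.07, so its signal does not separate the arrays. No source used here says whether its probes lie in the disrupted part, and directions are therefore those of the array labelled HuR-deficient. Of 10 macrophage markers, 9 passed the filter, among them Cd68 (11.34 in the array labelled HuR-deficient, 11.55 in wildtype) and Lyz2 (12.20 in the array labelled HuR-deficient, 12.34 in wildtype). Mertk was below the floor on both. Adgre1, which encodes F4/80, was the marker past 2-fold, at 6.51 in the array labelled HuR-deficient and 4.94 in wildtype (difference 1.57).

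**Figure D1:**
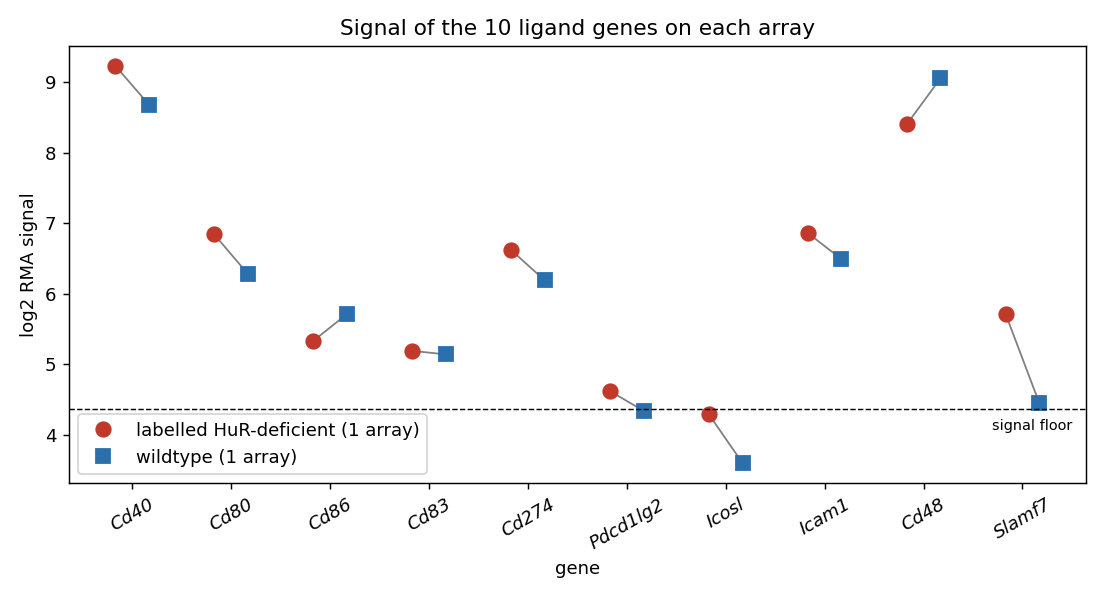
Log2 RMA signal of the 10 ligand genes (y axis), by gene (x axis), with a circle for the array labelled HuR-deficient and a square for the wildtype array, 1 array each and so no error bars. Circle and square lie furthest apart for Slamf7, at 5.71 and 4.45, and the circle is the lower one for Cd86 and Cd48. The dashed line is the signal floor of 4.37.

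The proximal promoters of 4 members are shown. Slamf7 and Cd48 are the pair of neighbouring genes that differed in opposite directions. Cd80 and Icam1 were picked from the other members that hold a searched motif. Cd274 and Pdcd1lg2 hold one too and are not printed. They are the 250 bases before the annotated start, from RefSeq, build GRCm38.p6. RefSeq promoters were matched for 7 of the 10 members; Cd40, Cd83 and Cd86 are named only. Capitals mark motif matches, on either strand.
Slamf7, chr1:171649000-171649249, minus strand: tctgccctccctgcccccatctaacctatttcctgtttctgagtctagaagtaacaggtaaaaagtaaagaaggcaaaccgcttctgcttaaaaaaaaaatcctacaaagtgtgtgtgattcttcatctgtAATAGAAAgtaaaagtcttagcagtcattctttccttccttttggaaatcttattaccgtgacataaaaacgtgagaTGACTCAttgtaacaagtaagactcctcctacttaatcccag
Cd48, chr1:171681742-171681991, plus strand: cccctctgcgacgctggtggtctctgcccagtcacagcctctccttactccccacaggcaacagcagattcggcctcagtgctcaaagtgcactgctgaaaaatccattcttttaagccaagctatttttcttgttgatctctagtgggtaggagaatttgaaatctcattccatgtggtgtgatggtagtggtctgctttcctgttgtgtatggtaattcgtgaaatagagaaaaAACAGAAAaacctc
Cd80, chr16:38458683-38458932, plus strand: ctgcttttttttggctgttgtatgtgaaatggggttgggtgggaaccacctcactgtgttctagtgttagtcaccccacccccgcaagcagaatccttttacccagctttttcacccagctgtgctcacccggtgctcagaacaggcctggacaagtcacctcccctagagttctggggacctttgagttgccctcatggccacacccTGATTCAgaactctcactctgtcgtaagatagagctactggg
Icam1, chr9:21015690-21015939, plus strand: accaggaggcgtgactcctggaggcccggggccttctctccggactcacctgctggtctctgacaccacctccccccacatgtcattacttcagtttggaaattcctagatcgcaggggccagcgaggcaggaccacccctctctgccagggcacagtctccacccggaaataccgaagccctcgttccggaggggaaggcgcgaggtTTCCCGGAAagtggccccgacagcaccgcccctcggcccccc
The motifs searched, on both strands, were AP-1 (TGANTCA), the STAT site known as GAS (TTCNNNGAA), the core bound by interferon regulatory factors (IRF, AANNGAAA), the longer interferon-stimulated response element and the NF-kappaB consensus. Slamf7 and Cd80 each hold 1 AP-1 match, TGACTCA and TGATTCA, and both lie 42 to 36 bases before the start. Of 32851 promoter windows of the same length, 6.75% hold such a match. Icam1 holds a GAS match, TTCCCGGAA, 42 to 34 bases before the start, as do 7.02% of windows. The IRF core, a short string found in 21.3% of windows, is in 4 of the 7 members' windows, those of Slamf7, Cd48, Cd274 and Pdcd1lg2. Pdcd1lg2, not printed, also holds an NF-kappaB match, as do 3.90% of windows. The interferon-stimulated response element (2.98% of windows) is in none of the 7, and the IRF core was added to the search after that was seen. Icosl holds no match to the 5 motifs. None of the matches in the members overlap. A match is a string of letters and was not measured here as a bound site.

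Among the SLAM family members, Slamf7, which encodes a receptor that binds itself on neighbouring cells, had a log2 signal of 5.71 on the array labelled HuR-deficient and 4.45 on the wildtype array, a difference of 1.27. The wildtype signal lay just above the floor. The difference was 4.0 times the robust SD of genes near in signal (0.31), and 0.8% of those 500 genes differed by at least as much. Among all genes that passed the filter, 51 had a larger positive difference. Cd48, which encodes a lipid-anchored ligand of CD244 and, in mice, of CD2, stood on the other side. Its signal was 8.40 on the array labelled HuR-deficient and 9.05 on the wildtype array, a difference of -0.65 against a robust SD of 0.26. Of the near genes, 6.2% differed by at least as much. In RefSeq gene order Slamf7 and Cd48 are adjacent on chromosome 1 among measured protein-coding genes. The difference of Slamf7 exceeded that of Cd48 by 1.92, which is a 3.78-fold change in the ratio of their signals. No spread was computed for such a ratio.

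The other SLAM genes gave no common direction. Of the 10 other SLAM family and adaptor genes measured, 4 were above 0 and 6 below it, with a median of -0.15, and 5 passed the filter with none at 2-fold. The SLAM receptor gene Slamf9 had 8.75 on the array labelled HuR-deficient and 9.61 on the wildtype array (difference -0.86). Cd244a, which encodes the receptor of CD48, had 4.76 on the array labelled HuR-deficient and 4.47 on the wildtype array (difference 0.29), and Ly9, a further family member, differed by -0.19. Slamf8 (-0.10) and the kinase gene Fyn (0.09), the other 2 that passed, lay near 0. Slamf1 (-0.61) and Cd84 (0.47), the next genes along from Cd48, were below the floor on both arrays. Slamf7 was thus the SLAM gene past 2-fold, and its measured neighbours Ly9 and Cd48 both had negative differences.

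**Figure D2:**
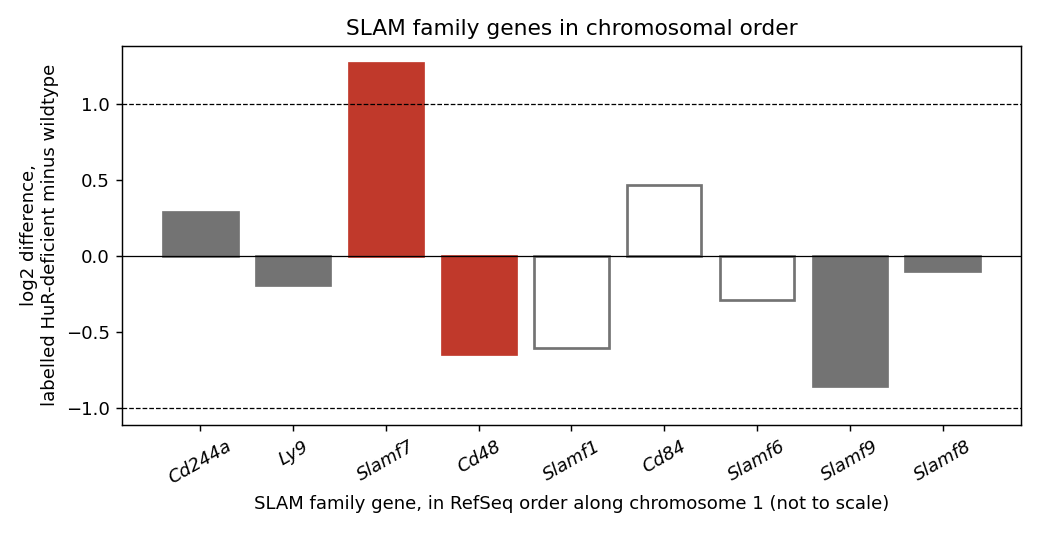
Log2 difference, array labelled HuR-deficient minus wildtype array (y axis), of 9 SLAM family genes in RefSeq order along chromosome 1 (x axis, not to scale), 1 array per group. Red bars are Slamf7 and Cd48, grey bars other genes that pass the filter, open bars genes that do not, and dashed lines 2-fold. Slamf7 at 1.27 stands beside Ly9 at -0.19 and Cd48 at -0.65.

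The pair of CD28 and CTLA-4 ligands differed in direction. Cd80 had a log2 signal of 6.84 on the array labelled HuR-deficient and 6.28 on the wildtype array, a difference of 0.56, or 1.8 times the robust SD of genes near in signal. Of those genes, 11.4% had a difference as large or larger. Cd86 had 5.33 on the array labelled HuR-deficient and 5.71 on the wildtype array, a difference of -0.38, or -1.2 robust SDs, and 24.6% of genes near in signal had one as large or larger. Both genes were above the floor on each array. The difference of Cd80 exceeded that of Cd86 by 0.94, a 1.92-fold change in the ratio of the signals, while neither gene alone reached 1.5-fold. How far such a ratio varies between other pairs of genes was not computed. Cd83, an activation marker whose protein is known to keep CD86 and MHC class II at the surface by opposing the ubiquitin ligase MARCH1, had 5.19 on the array labelled HuR-deficient and 5.14 on the wildtype array. Its difference of 0.05 was exceeded or equalled in size by 87.0% of genes near in signal. Marchf1, the gene of that ligase, was below the floor on both arrays.

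The ligands of PD-1 were both slightly higher in the array labelled HuR-deficient. Cd274, which encodes PD-L1, had 6.62 on that array and 6.19 on the wildtype array, a difference of 0.43, and 19.2% of near genes had one as large or larger. Pdcd1lg2, which encodes PD-L2 and is the next gene along chromosome 19, had 4.62 on the array labelled HuR-deficient and 4.34 on the wildtype array, a difference of 0.28, with 40.4% of near genes at least as different. Its wildtype signal was below the floor, so this difference is uncertain. The difference of Cd274 exceeded that of Pdcd1lg2 by 0.15, less than the robust SD of 0.33 near Cd274 and 0.32 near Pdcd1lg2.

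Cd40 gave a signal far above the floor on both arrays, at 9.23 on the array labelled HuR-deficient and 8.68 on the wildtype array. Its difference of 0.55 was of the size of that of Cd80 but lay where genes vary less: the robust SD was 0.25, so the difference was 2.2 of them, and 8.6% of near genes differed by at least as much. Icam1, the ligand of LFA-1, had 6.86 on the array labelled HuR-deficient and 6.49 on the wildtype array (difference 0.36), and 28.4% of near genes differed by at least as much. Icosl, the ligand of ICOS, had 4.29 on the array labelled HuR-deficient and 3.60 on the wildtype array, both below the floor. Its difference of 0.69 was the second largest of the positive ones, but signals this low were not shown to lie above background, and 7.4% of near genes differed by at least as much.

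Counted at thresholds among the 9 members that passed the filter, 1 was at least 2-fold higher (Slamf7) and 0 at least 2-fold lower. The shares over all genes that passed were 0.885% and 1.11%. At 1.5-fold, a log2 difference of 0.58, 1 was higher (Slamf7) and 1 lower (Cd48), against 5.45% and 5.32% of all genes that passed. The members' differences ran from -0.65 to 1.27, and Cd40 and Cd80 lay just short of the 1.5-fold line.

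**Figure D3:**
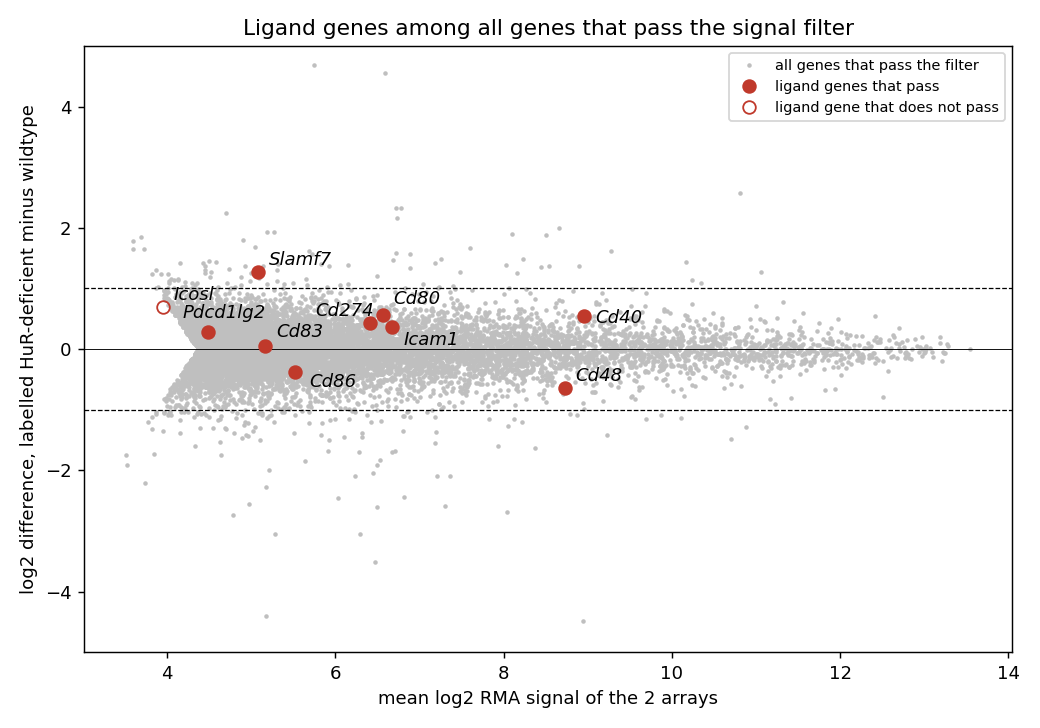
Log2 difference, array labelled HuR-deficient minus wildtype array (y axis), against the mean log2 RMA signal of the 2 arrays (x axis). Grey points are the 11981 genes that pass the filter, red points the 9 ligand genes that pass, the open circle Icosl, and dashed lines 2-fold. Slamf7 at 1.27 lies above the upper line, and the other ligand genes lie between the lines. Cd40 and Cd48 lie in the outer part of the narrower cloud at high signal, not beyond it. The notch at the left edge follows from the filter.

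Related genes were examined in 8 lists. Of 18 other B7, butyrophilin and checkpoint ligands, 12 passed the filter, with a median difference of -0.04 over those 12, and 0 were at least 2-fold higher and 1 lower. That gene was Cd24a, which encodes the anchored glycoprotein CD24, at 5.17 on the array labelled HuR-deficient and 6.68 on the wildtype array (difference -1.51). Cd24a had a second, dimmer probe set with a difference of -0.13, and the mean of both was -0.82, short of 2-fold. Ceacam1, a ligand of TIM-3, differed by -0.98 and Pvr, a ligand of TIGIT and CD226, by -0.76, with Pvr below the floor on the array labelled HuR-deficient. Vtcn1, the B7 family gene of B7-H4, differed by 0.53, Lgals9, which encodes galectin-9, by 0.25 and the butyrophilin-like gene Btnl2 by 0.12. Cd47, the macrophage checkpoint ligand of SIRP-alpha, had 10.20 on both arrays. The largest differences among these other ligands were thus negative, while that of Slamf7, the largest among the members, was positive.

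Among the TNF family costimulatory ligands, 5 of 8 measured passed and none reached 2-fold. Tnfsf9, which encodes the 4-1BB ligand, had 9.00 on the array labelled HuR-deficient and 8.25 on the wildtype array (difference 0.76). Tnfsf13b, which encodes the B cell factor BAFF, differed by -0.49. The other 3 that passed, Tnfsf8 (0.16), Tnfsf4 (0.06) and Tnfsf15 (-0.08), lay closer to 0. Among adhesion ligands, 5 of 9 measured passed and none reached 2-fold. The median was 0.18 over those 5 and 0.04 over the 9. Icam4, in gene order the next gene after Icam1, differed by 0.80, at 5.84 on the array labelled HuR-deficient and 5.04 on the wildtype array. Icam5 (0.18) and Icam2 (0.21) lay closer to 0, and Alcam (-0.21), a ligand of CD6, and Selplg (-0.19), the gene of the selectin ligand PSGL-1, lay below it.

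Some receptors of these ligands were also measured, since macrophages carry several of them. Of 14, 7 passed the filter, with 1 at least 2-fold higher and 0 lower. Pdcd1, which encodes PD-1, had 8.12 on the array labelled HuR-deficient and 6.85 on the wildtype array. Its difference of 1.27 matched that of Slamf7 at this rounding, and 0.8% of near genes differed by at least as much. The checkpoint receptor genes Lag3 (0.62) and Havcr2, which encodes TIM-3 (-0.70), lay on opposite sides. The integrin chains of LFA-1, Itgal (0.10) and Itgb2 (-0.56), did not share a direction, and the integrin gene Itgam differed by -0.33. The genes of this list that did not pass were Cd28, Ctla4, Cd40lg, Btla, Tigit, Cd226 and Itgax, all below the floor on both arrays. Icos lay just above the floor, at 4.50 on the array labelled HuR-deficient and 4.51 on the wildtype array. Pdcd1, Lag3 and Itgal were also above the floor on both arrays.

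The genes of the CD40 signalling list, which includes inhibitors, were mostly a little higher. Of 15 measured, 12 were above 0 (49.2% of all named genes were). The median was 0.26, the highest of the 8 lists, and none was at 2-fold. Nfkb2, the gene of the p100 and p52 subunit, differed by 0.61, the adaptor gene Traf1 by 0.58 and the kinase regulator gene Ikbkg by 0.42. Ikbkg was below the floor on the wildtype array, so its difference is uncertain. Tnfaip3, which encodes the NF-kappaB inhibitor A20, was the negative one among those that passed, at 4.50 on the array labelled HuR-deficient and 5.11 on the wildtype array (difference -0.61). Another NF-kappaB inhibitor gene, Nfkbia, went the other way. It had 10.11 on the array labelled HuR-deficient and 9.82 on the wildtype array (difference 0.30). In the interferon route to PD-L1, 13 of 14 genes were measured, all passed, none was at 2-fold, and the median was 0.05. The kinase genes Tyk2 (0.66) and Jak2 (0.59) and the transcription factor gene Irf1 (0.33) lay highest, and the receptor chain gene Ifnar2 (-0.41), the inhibitor gene Socs3 (-0.38) and the receptor chain gene Ifngr1 (-0.25) lowest. Socs3 had 2 probe sets, and the mean of both differed by -0.20. For genes that act on the turnover of the PD-L1 and CD86 proteins the median was 0.00 over 12 measured, with none at 2-fold. Cmtm6, which protects PD-L1 from degradation, differed by 0.47, and the ubiquitin ligase genes Cop1 and Spop by -0.52 and -0.50. Btrc (0.29), Otub1 (0.25) and Marchf8 (-0.25) followed. Protein levels were not measured here.

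**Figure D4:**
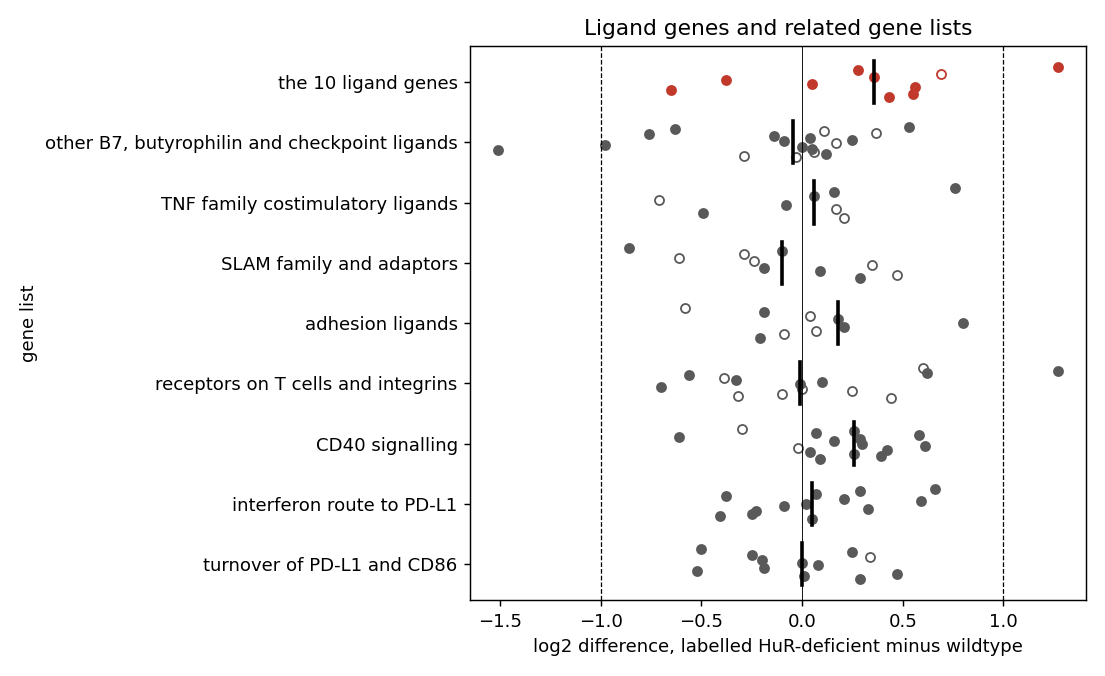
Log2 difference, array labelled HuR-deficient minus wildtype array (x axis), of the 10 ligand genes (red) and of 8 related lists (grey), 1 row per list (y axis) and 1 array per group. Filled points passed the signal filter, open points did not, black bars are medians of the filled points and dashed lines 2-fold. The bar lies at 0.36 for the ligand genes, at 0.26 for CD40 signalling and between -0.10 and 0.18 for the other lists.

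Markers of other cell types that carry these ligands were checked. Of dendritic cell markers 5 of 9 measured passed the filter, of B cell markers 2 of 7, of T and NK cell markers 4 of 9 and of fibroblast and epithelial markers 4 of 8. The filter passed 11981 of all 22180 named genes, so passing it does not by itself show that a marker is expressed. The median log2 signal of the dendritic cell list was 4.37 on the array labelled HuR-deficient and 4.20 on the wildtype array. That of the B cell list was 4.02 on each array. The T and NK cell list had 3.83 on the array labelled HuR-deficient and 4.08 on the wildtype array, and the fibroblast and epithelial list 3.95 on the array labelled HuR-deficient and 4.30 on the wildtype array. By gene, the T and NK cell list had a median difference of 0.13, with 5 above 0 and 4 below. Its 4 genes that passed, Cd3d (0.52), Cd4 (0.26), Nkg7 (0.19) and Cd3e (0.13), were all above 0. Of them, 3 passed through the array labelled HuR-deficient alone, Nkg7 being above the floor on both. A gene that passes through that array alone is higher there by definition. The genes of this list below the floor on both arrays were Cd3g (0.52), Cd8b1 (-0.01), Ncr1 (-0.14), Cd8a (-0.42) and Klrb1c (-1.21). Among those that passed, none was at 2-fold. The part of other cell types in the members' differences was not tested.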

How the data were processed

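Values were measured in 1 array per group (HuR-deficient, wildtype). The deposited log2 signals are the authors' RMA values, as the submitters' processing notes name that tool; no source used here gives its version, annotation or build. RMA gives the arrays the same distribution of probe intensities, though not necessarily of probe set signals, and compresses weak signals. The log2 scale was read from the values (0.434 to 13.77). No detection calls were used, so low signals were not called absent.

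Of 41345 probe sets, 23521 had 1 symbol in the platform's gene table, 1814 had several and 16010 none, and the first kind gave 22180 genes, taking the probe set with the highest mean. List symbols were matched directly or through RefSeq synonyms and Entrez IDs: 150 of 161 were measured. The members and lists were chosen with earlier results of these data known. The named genes were the members, Elavl1, and per list up to 3 of the most positive, up to 3 of the most negative and all at 2-fold among those that passed; others named were chosen after their values were seen. No p-value was computed, as each group has 1 array, which limits the precision. The counting step was tested on simulated data. Alternatives were centring, repeated quantile normalisation, removal of a loess trend (span 0.3), averaged probe sets, other filters and a 3-fold threshold. The tools were pandas 2.3.3 and numpy 2.4.6 under Python 3.11.15, with statsmodels 0.14.6 for the trend and matplotlib 3.10.9 for figures.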

Additional observations from a re-analysis of the deposited data

How the results depend on the processing

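The 10 members' differences were recomputed under centring on the median difference, repeated quantile normalisation, loess trend removal and averaging of probe sets. Averaging could not change them, as each member has 1 probe set. Centring could not either, as the median difference over all named genes was 0. Under the repeated quantile normalisation and the trend removal they kept their direction and moved by at most 0.04. With no signal filter, Icosl entered and 2 members were at least 1.5-fold higher. At a 3-fold threshold in place of 2-fold, 0 members were counted as higher. When the mean of a gene's probe sets was used, 0 of the other B7, butyrophilin and checkpoint ligands were at least 2-fold lower, since Cd24a fell short. The filter decided how many genes were counted: with no filter 185 of 22180 genes were at least 2-fold higher and 232 lower, and with both arrays at or above the floor 55 and 76 of 10334. The median of the adhesion ligands was 0.04 with no filter, against 0.18 over those that passed. No paired analysis was possible because each group has 1 array. With 1 array per group no culture could be left out.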

Other observations

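The measured protein-coding genes next to the members in RefSeq order were also read, and those named here were chosen after their values were seen. Around Icam1, the genes on either side all had positive differences. The sphingosine phosphate receptor gene S1pr2 differed by 0.55 and the mitochondrial ribosomal protein gene Mrpl4 by 0.59. Icam1 itself differed by 0.36, Icam4 by 0.80 and Icam5 by 0.18. The same held around Icosl (0.69, below the floor on both arrays), with Aire 0.12, Dnmt3l 0.03, Gatd3a 0.13 and Pwp2 0.17. Of all named genes, 49.2% had a difference above 0, and whether neighbours differ together was not tested. Next to Cd80, the phospholipase gene Pla1a had 7.58 on the array labelled HuR-deficient and 6.51 on the wildtype array, a difference of 1.07. On the other side of Cd80, Timmdc1 differed by 0.03. Around the PD-L1 and PD-L2 genes, Plgrkt, a plasminogen receptor gene, differed by -0.26 and Ric1, below the floor on both arrays, by -0.17, so Cd274 (0.43) and Pdcd1lg2 (0.28) lay between neighbours with negative differences. The neighbours of Cd40, Ncoa5 (0.08) and Cdh22 (-0.11), differed by little beside its own 0.55.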
